A study of Mus musculus with 16 samples.

Results

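The transcripts described here are those of the translation initiation factors, the proteins that place a ribosome on the start codon of an mRNA. They were taken by name from a table of gene expression in mouse oocytes, as the entries whose gene name begins with Eif and a digit from 1 to 6, leaving out the Eif2ak kinases, names beginning with Eif2c, and Eif4e1b and Eif4enif1. This gave 57 entries with 55 gene names, of 28618 entries with 27987 names in all. Of the 63 entries that matched the prefix, 6 were left out by the rule.

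The study compared oocytes of wildtype (WT) C57BL/6 mice with oocytes in which Psma7, a subunit of the 20S proteasome core, was deleted with Zp3-Cre from a floxed allele (Psma7 cKO). Oocytes at the germinal vesicle (GV) stage came from females of 3 to 4 weeks, 44 h after an injection of 5 IU pregnant mare serum gonadotropin. Oocytes at metaphase II (MII), called eggs here, came from the oviducts of females of the same age. They were taken 14 to 16 h after a further injection of human chorionic gonadotropin, and hyaluronidase was used to free them. The study reports that part of the ovulated Psma7 cKO oocytes lacked a first polar body, stayed at the GV stage or were arrested at telophase I. Whether such oocytes were left out of the MII pools is not given in the labels, so genotype and meiotic stage cannot be fully told apart in eggs. Each of the 4 groups held 4 libraries, each made by Smart-seq2 from a pool of 5 oocytes according to the sample labels, where the methods of the study give another number, so each p-value measures the spread between pools. Zp3-Cre is active in growing oocytes. Whether the WT mice carried the floxed allele or Cre is not given in the labels.

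An initiation factor acts either on the small ribosomal subunit, on the initiator tRNA, on the cap and 5′ end of the mRNA, or at the joining of the large subunit. The full-grown oocyte makes almost no new RNA, and maturation runs on stored mRNAs, of which many are degraded and others gain a longer poly(A) tail and are translated. The libraries were primed with oligo-dT, so a lower value can mean that the mRNA was lost or that its tail was shortened, and these cannot be told apart here.

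Values are FPKM, fragment counts scaled to transcript length and library size, so they are shares of each library and not amounts per oocyte. Psma7 itself was measured first, as a check of the labels. It stood at 154, 142, 201 and 164 FPKM in the WT GV libraries and at 14.55, 14.7, 11.1 and 17.98 FPKM in the Psma7 cKO GV libraries. In eggs it stood at 118.5, 116, 97.7 and 172 FPKM in WT and at 13.6, 50.3, 34.98 and 59.9 FPKM in Psma7 cKO. The genotypes did not overlap at either stage, and among the Psma7 cKO eggs only replicate 1 was as low as the Psma7 cKO GV oocytes. The log2 difference was -3.51 in GV oocytes and -1.83 in eggs (adjusted p = 9e-07 and 0.036), and from GV to MII Psma7 fell in WT (-0.41) and rose in Psma7 cKO (1.27). The difference between these, tested as the interaction, did not pass (adjusted p = 0.085). The call in eggs was lost without any WT egg replicate (adjusted p = 0.1, 0.073, 0.077 and 0.083 without replicates 1 to 4) or without Psma7 cKO egg replicate 3 (adjusted p = 0.061), and it was lost with no filter (adjusted p = 0.055) and with the replicate block (adjusted p = 0.052). The fall in WT was lost when GV replicate 1, 3 or 4 or egg replicate 1, 2 or 3 was left out, and the rise in Psma7 cKO when GV replicate 3 or egg replicate 4 was. All 10 oocyte markers examined (Zp1, Zp2, Zp3, Gdf9, Bmp15, Ddx4, Dppa3, Nlrp5, H1foo and Mos) were above 0 in all 16 libraries, with summed levels of 8237 to 15918 FPKM. The 12 cumulus and granulosa markers summed to 15.8 to 23.3 FPKM, of which Cyp19a1, the most abundant of them, made up 6.21 to 15.2 FPKM. Both sums differed with stage. For oocyte markers the mean was 15170 FPKM in WT GV oocytes and 8824 FPKM in WT eggs, and 15224 and 9250 FPKM in Psma7 cKO. For cumulus and granulosa markers it was 16.9 and 22.2 FPKM in WT and 19.2 and 22.6 FPKM in Psma7 cKO. Foxl2 and Tnfaip6 were at 0 in 15 of the 16 libraries, and Amh and Ptx3 in 14. Like Cyp19a1, Kitl (3.24 to 7.16 FPKM), Nr5a2 (1.94 to 3.94 FPKM) and Ptgs2 (0.0682 to 0.689 FPKM) were above 0 in all 16. The estimated depth was 10.6 to 15.7 M fragments a library.

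The Psma7 cKO eggs differed among themselves in 584 other entries, outside the set, that fell more than 8-fold on the fitted scale from GV to MII in WT and had a WT GV mean of at least 8 FPKM, a choice made after the values had been seen and in which the WT eggs themselves were used. Their median level, in percent of the WT GV mean, was 7.09, 8.21, 7.41 and 7.06 in the WT eggs. It was 12.7, 9.72, 30.7 and 16.9 in the Psma7 cKO eggs, all above the WT eggs, with replicate 3 the highest and replicate 4 next.

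The members spanned a wide range. In WT GV oocytes 45 entries had a mean of at least 1 FPKM and 14 a mean over 100 FPKM, and 10 entries were below 1 FPKM in every library. Eif1ax, the X-linked gene of eIF1A, was the most abundant at 680.2 ± 102 FPKM (SD, n = 4) and made up 17.5% of the members' summed FPKM. It was followed by Eif4a1, Eif3g, Eif1b and Eif3m at 337, 245, 229 and 227 FPKM. In WT eggs the order was different, with Eif2b1 first at 383 ± 14.8 FPKM (SD, n = 4), then Eif4a1, Eif4e3, Eif3i and Eif1b at 377, 241, 225 and 201 FPKM. Eif2b1 and Eif4a1 did not differ beyond their spread in WT eggs, nor did Eif3g, Eif1b and Eif3m in WT GV oocytes. The members' sum in GV oocytes was 3886 ± 166 FPKM for WT and 3755 ± 189.6 FPKM for Psma7 cKO, and in eggs 2942 ± 91.1 FPKM for WT and 3146 ± 155 FPKM for Psma7 cKO (SD, n = 4).

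From GV to MII, 11 members rose and 23 fell in WT among the 45 that were tested (limma, adjusted p under 0.05), where 26.1% of all 10475 entries tested rose and 52.4% fell. In Psma7 cKO, 8 of 45 rose and 23 fell, where 23.0% of 10748 entries rose and 51.0% fell. The members that rose were 24.4% of those tested in WT, and those that fell 51.1%. For Psma7 cKO these shares were 17.8% and 51.1%. Without Psma7 cKO GV replicate 3 the 8 that rose became 5, with Eif2a, Eif3e and Eif4g3 lost, while 21.8% of all entries rose in that fit. The median log2 fold change of the members was -0.50 in WT and -0.46 in Psma7 cKO, beside -0.44 and -0.42 over all entries tested. All 8 that rose and all 23 that fell in Psma7 cKO also did so in WT with every library fitted. The share of all entries that passed in both genotypes is not given here, so this overlap has no background to stand beside. Eif4e3, Eif4g2 and Eif5 passed the threshold only in WT. Of the 23 in Psma7 cKO, the call of Eif1a was lost when GV replicate 1, 3 or 4 or egg replicate 1, 2 or 4 was left out. For Eif4e3, Eif4g2 and Eif5 the difference between the genotypes was tested as an interaction and did not pass, with adjusted p of 0.61, 0.17 and 0.38. Eif1a, Eif3f and Eif4e2 were below 1 FPKM in all WT eggs and passed the filter through their GV levels alone. Values below 1 were set to 1, so their calls, which are among the 23, are set in part by the filter and the floor, and their levels are given below as values only. By size alone, with no test and with means taken after values below 1 were set to 1, 16 members were more than 3-fold lower in eggs for WT and 15 for Psma7 cKO, where 22.1% and 17.2% of all entries were. None was more than 3-fold higher in either genotype, where 1.07% and 0.856% of all entries were, and limma's test at an unadjusted p under 0.05 counted 11 and 9 members as higher, beside 26.6% and 23.85% of all entries.

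**Figure D1:**
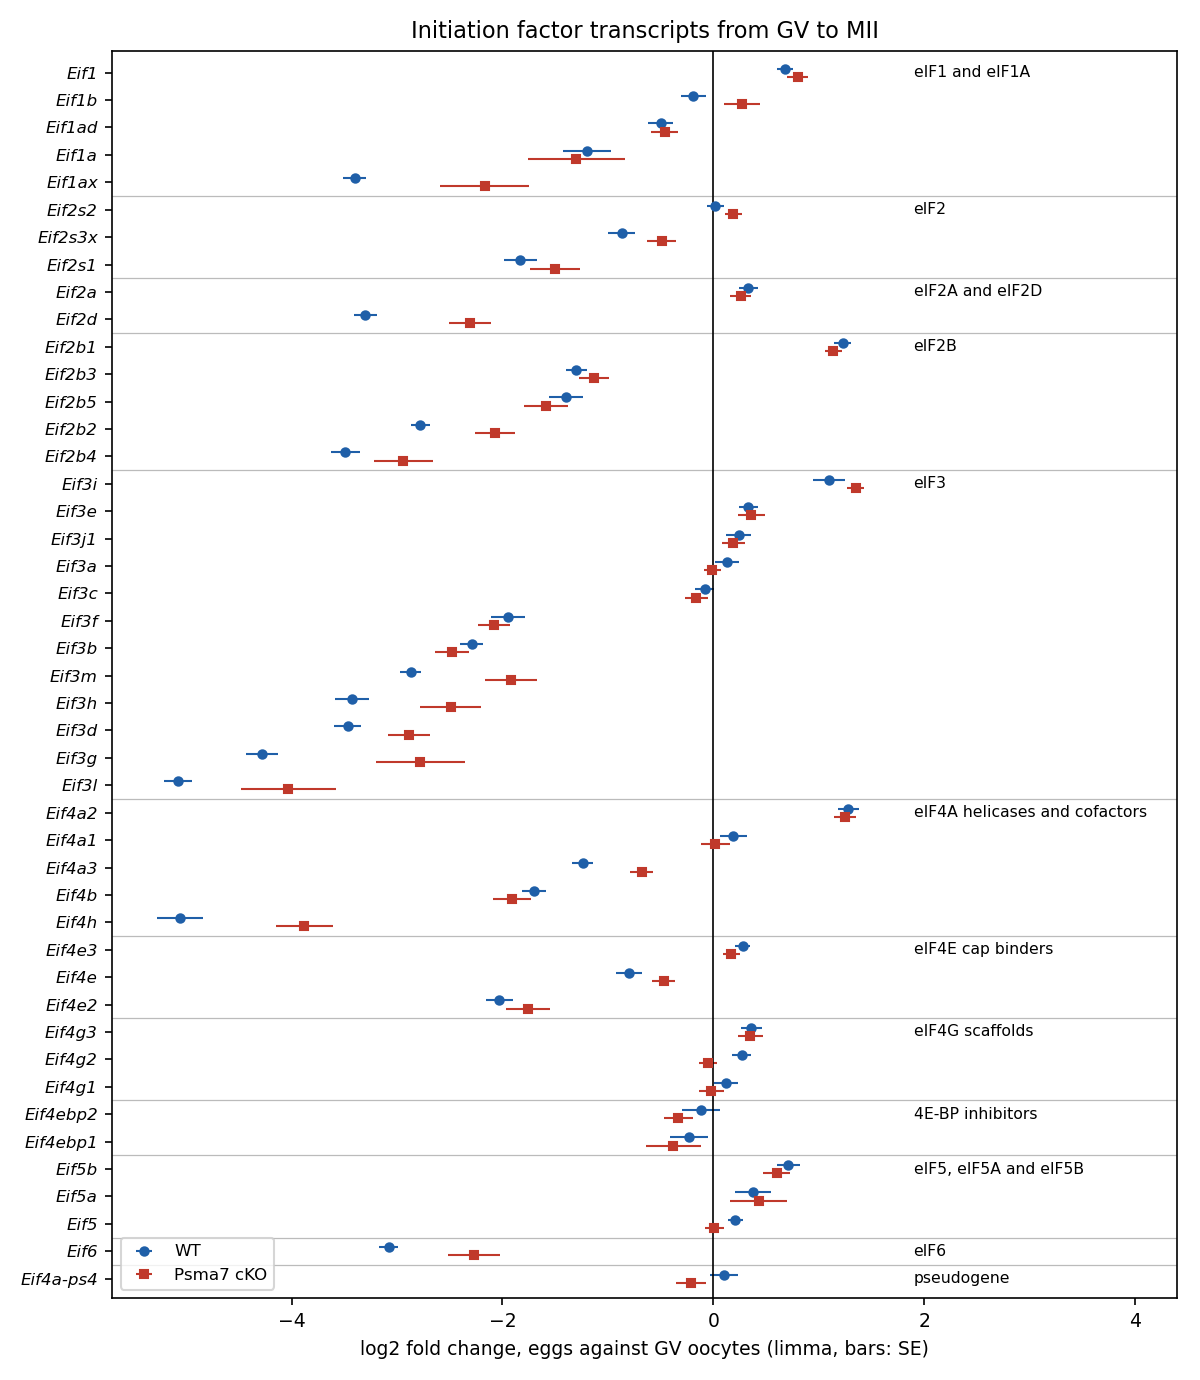
Log2 fold change from GV oocytes to eggs for the 45 members tested in both genotypes, grouped by role, with WT as circles, Psma7 cKO as squares and the standard error as bars. Within eIF2B and eIF3 some subunits lie to the right of 0 and others far to the left, from 1.23 for Eif2b1 to -3.49 for Eif2b4 and from 1.10 for Eif3i to -5.08 for Eif3l in WT.

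eIF1 and eIF1A bind the small subunit and set the accuracy of start codon choice. Eif1ax stood at 653.5, 584, 824 and 659.7 FPKM in WT GV oocytes and at 57.5, 70.03, 60.05 and 68.5 FPKM in WT eggs. In Psma7 cKO it stood at 705, 572, 427 and 647 FPKM in GV oocytes and at 76.1, 73.1, 296.5 and 167 FPKM in eggs. Every egg library lay below every GV library of its genotype, and Psma7 cKO eggs 3 and 4 kept the most. The fall was 10.6-fold between means in WT (log2 fold change -3.40 ± 0.11 (SE), adjusted p = 1.3e-09) and 3.84-fold in Psma7 cKO (log2 fold change -2.17 ± 0.42 (SE), adjusted p = 0.0012). Over the alternative fits the log2 fold change of Eif1ax ran from -2.95 to -1.89 in Psma7 cKO and from -3.47 to -3.31 in WT. Eif1, by contrast, rose in both, from 109 ± 10.35 to 174 ± 5.89 FPKM in WT (SD, n = 4; log2 fold change 0.68, adjusted p = 2.2e-05) and from 107 ± 7.05 to 187 ± 21.3 FPKM in Psma7 cKO (SD, n = 4; log2 fold change 0.80, adjusted p = 8.2e-05). Its paralog Eif1b did not pass the threshold in either genotype (adjusted p = 0.16 and 0.17), but did so as lower in WT without GV replicate 2, and as higher in Psma7 cKO without egg replicate 4 and without egg replicates 3 and 4 together. Eif1ad, which carries an eIF1A domain, fell in both (log2 fold change -0.50 and -0.46). Eif1a, the autosomal eIF1A gene, had means of 2.435 FPKM in WT GV oocytes and 0.376 FPKM in WT eggs. In Psma7 cKO its means were 3.71 and 1.33 FPKM, and its libraries overlapped, with the lowest GV library at 1.92 FPKM and the highest egg library, replicate 3, at 3.27 FPKM.

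eIF2 carries the initiator tRNA to the ribosome. The genes of 2 of its 3 subunits fell in both genotypes, where 52.4% of all entries fell in WT and 51.0% in Psma7 cKO. The beta subunit gene Eif2s2 had means of 168 FPKM in WT GV oocytes and 169.9 FPKM in WT eggs, and the difference did not pass in either genotype (adjusted p = 0.85 in WT and 0.061 in Psma7 cKO). In Psma7 cKO it passed as higher without GV replicate 1, without egg replicate 1 and with all 16 libraries fitted. Eif2s1, whose product is the alpha subunit phosphorylated by the stress kinases, fell from 50.6 ± 3.87 to 14.6 ± 4.17 FPKM in WT (SD, n = 4; log2 fold change -1.83 ± 0.16 (SE), adjusted p = 1.7e-06). In Psma7 cKO the log2 fold change of Eif2s1 was -1.50 (adjusted p = 0.00033). The gamma subunit gene Eif2s3x fell as well, with log2 fold changes of -0.87 in WT and -0.49 in Psma7 cKO. In Psma7 cKO its GV oocytes and eggs overlapped, and the call was lost without egg replicates 3 and 4 together. In WT GV oocytes the mean of Eif2s2 was 13.5 times that of Eif2s3x in FPKM, and in WT eggs 24.8 times.

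eIF2B reloads eIF2 with GTP and is built of 5 different subunits. Its alpha subunit gene Eif2b1 stood at 159.6, 153.5, 185 and 157 FPKM in WT GV oocytes and at 372, 393, 369 and 398 FPKM in WT eggs. In Psma7 cKO it stood at 163, 155, 147 and 147 FPKM in GV oocytes and at 346, 345, 306 and 351 FPKM in eggs. All eggs lay above all GV oocytes, and Psma7 cKO egg 3 was the lowest of the eggs. Eif2b1 rose 2.34-fold in WT (log2 fold change 1.23 ± 0.08 (SE), adjusted p = 1.3e-07) and 2.204-fold in Psma7 cKO (log2 fold change 1.14 ± 0.08 (SE), adjusted p = 3e-06). The other 4 subunit genes fell in both genotypes, where 52.4% of all entries fell in WT and 51.0% in Psma7 cKO. Eif2b4, the delta subunit, went from 23.9, 27.01, 19.7 and 27.3 FPKM in WT GV oocytes to 2.46, 2.05, 1.86 and 2.31 FPKM in WT eggs. Eif2b4 in Psma7 cKO went from 23.45, 24.7, 29.4 and 24.96 FPKM in GV oocytes to 2.95, 2.16, 6.12 and 3.185 FPKM in eggs, with egg 3 the highest. The log2 fold change was -3.49 in WT and -2.94 in Psma7 cKO for Eif2b4, -2.78 and -2.07 for the beta subunit Eif2b2, -1.30 and -1.13 for the gamma subunit Eif2b3, and -1.40 and -1.59 for Eif2b5, the catalytic epsilon subunit. The highest of the 5 means was 27.0 times the lowest in WT GV oocytes and 176 times the lowest in WT eggs, per length.

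eIF2A and eIF2D can bring a tRNA to the ribosome without eIF2 in special settings. Eif2a rose from 25.5 ± 1.68 to 32.1 ± 2.555 FPKM in WT (SD, n = 4; log2 fold change 0.33, adjusted p = 0.0057). In Psma7 cKO its rise (log2 fold change 0.26, adjusted p = 0.032) did not pass when GV replicate 2 or 3 or egg replicate 1, 3 or 4 was left out, or with the replicate block. Eif2d stood at 16.96, 15.7, 14.3 and 14.5 FPKM in WT GV oocytes and at 1.599, 1.59, 1.54 and 1.48 FPKM in WT eggs. In Psma7 cKO, Eif2d stood at 14.97, 15.8, 14.5 and 14.1 FPKM in GV oocytes and at 2.77, 2.18, 4.4 and 3.04 FPKM in eggs. The WT eggs were tightly grouped, and all Psma7 cKO eggs lay above them and below all GV oocytes. The fall of Eif2d was -3.30 on the log2 scale in WT (adjusted p = 1.4e-09) and -2.31 in Psma7 cKO (adjusted p = 8.7e-06).

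eIF3 is the largest of the factors and holds the other factors and the mRNA on the small subunit. The set held 15 eIF3 entries, of which 12 were tested in both maturation comparisons: 2 passed as higher and 7 as lower in each genotype, the 7 with Eif3f, which entered through its GV level alone, and Eif3a, Eif3c and Eif3j1 did not pass in either. Over all entries, as given above, 26.1% and 52.4% passed in WT and 23.0% and 51.0% in Psma7 cKO. Eif3l stood at 70.2, 69.7, 61.4 and 59.2 FPKM in WT GV oocytes and at 2.22, 2.096, 1.88 and 1.56 FPKM in WT eggs. In Psma7 cKO it stood at 59.7, 62.6, 65.2 and 61.1 FPKM in GV oocytes and at 2.555, 2.28, 11.5 and 3.09 FPKM in eggs. GV oocytes and eggs were far apart in both genotypes, and Psma7 cKO egg 3 stood well above the other eggs. The fall was 33.6-fold between means in WT (log2 fold change -5.08 ± 0.13 (SE), adjusted p = 4.7e-10). In Psma7 cKO the log2 fold change was -4.03 ± 0.45 (SE, adjusted p = 3.9e-05). Over the alternative fits it ran from -4.69 to -3.68 in Psma7 cKO and from -5.15 to -4.49 in WT. Eif3g, whose product joins eIF3b and eIF3i in a module that lies near the mRNA, stood at 243.5, 235, 276 and 226 FPKM in WT GV oocytes and at 9.92, 17.1, 12.1 and 12.1 FPKM in WT eggs. In Psma7 cKO, Eif3g stood at 273, 242, 215 and 233 FPKM in GV oocytes and at 25.1, 16.4, 82.7 and 43.5 FPKM in eggs. The Psma7 cKO eggs spread widely here, with replicate 2 inside the WT range and replicate 3 far above it. The log2 fold change of Eif3g was -4.28 in WT and -2.78 in Psma7 cKO (adjusted p = 1.7e-09 and 0.00026). Over the alternative fits that of Eif3g ran from -4.43 to -4.17 in WT and from -3.56 to -2.42 in Psma7 cKO.

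Its partner Eif3i went the other way. It stood at 103, 90.8, 139.5 and 90.6 FPKM in WT GV oocytes and at 189, 235.5, 217 and 259.9 FPKM in WT eggs. In Psma7 cKO, Eif3i stood at 90.05, 95.5, 91.5 and 106 FPKM in GV oocytes and at 243, 233, 267 and 231 FPKM in eggs. All eggs lay above all GV oocytes, and the rise was 2.12-fold in WT (adjusted p = 3.9e-05) and 2.54-fold in Psma7 cKO (adjusted p = 2.1e-06). Eif3b, the third gene of that module, fell in both genotypes, with log2 fold changes of -2.29 and -2.48. The product of Eif3d can bind the cap. Apart from Eif3f, the remaining losses in WT were -3.47 for Eif3d, -3.43 for Eif3h and -2.87 for Eif3m, all on the log2 scale. In Psma7 cKO they were -2.89, -2.49 and -1.92. Egg replicate 3 was the highest of the Psma7 cKO eggs for each of these, at 5.58, 8.29 and 90.75 FPKM beside group means of 3.73, 4.84 and 58.1 FPKM. Eif3e rose by 0.33 in WT (adjusted p = 0.0055) and by 0.36 in Psma7 cKO (adjusted p = 0.028), where GV oocytes and eggs overlapped and the call was lost when GV replicate 3 or 4 or egg replicate 3 or 4 was left out, or with the replicate block. The core scaffold genes Eif3a and Eif3c had WT means of 14.2 and 29.7 FPKM in GV oocytes and 15.5 and 28.2 FPKM in eggs. Eif3f had means of 3.92 FPKM in WT GV oocytes and 0.253 FPKM in WT eggs, and of 4.62 and 0.723 FPKM in Psma7 cKO. Eif3k was below 1 FPKM in every library. In WT eggs the means of the eIF3 genes thus ran from 0.253 FPKM for Eif3f to 225 FPKM for Eif3i, as levels per length.

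**Figure D2:**
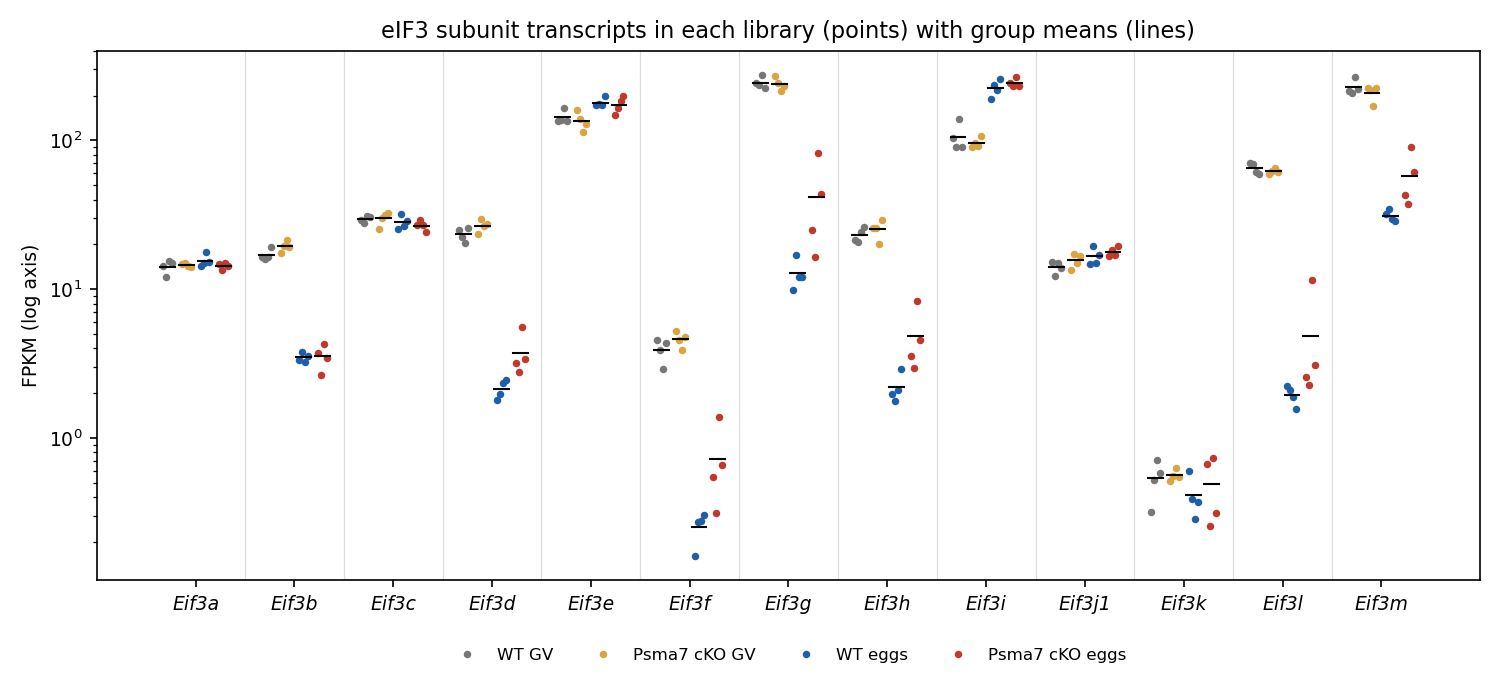
FPKM of 13 eIF3 subunit genes on a log axis, with each library as a point and each group mean as a line, in WT GV oocytes, Psma7 cKO GV oocytes, WT eggs and Psma7 cKO eggs. Eif3a, Eif3c and Eif3j1 lie at similar heights in all groups, Eif3i lies higher in eggs, and Eif3l, Eif3g, Eif3h, Eif3d and Eif3m lie lower in eggs, with the highest Psma7 cKO egg in each of these being replicate 3.

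eIF4A is the helicase that opens the 5′ end of the mRNA, and eIF4B and eIF4H are its cofactors. Eif4a2 stood at 72.2, 75.1, 95.5 and 82.9 FPKM in WT GV oocytes and at 192, 204, 215 and 178.5 FPKM in WT eggs. In Psma7 cKO, Eif4a2 stood at 88.1, 97.5, 70.8 and 91.6 FPKM in GV oocytes and at 200.0, 214, 204 and 202 FPKM in eggs. The stages did not overlap, and the rise was 2.43-fold in WT (adjusted p = 6.2e-07) and 2.36-fold in Psma7 cKO (adjusted p = 7.8e-06). Its paralog Eif4a1 was more abundant, with WT means of 337 FPKM in GV oocytes and 377 FPKM in eggs, and did not pass in WT (adjusted p = 0.22), but did so as higher without GV replicate 2. Eif4h stood at 104, 67.97, 45.7 and 74.02 FPKM in WT GV oocytes and at 1.62, 2.496, 2.27 and 2.098 FPKM in WT eggs. In Psma7 cKO, Eif4h stood at 80.8, 80.1, 83.6 and 82.6 FPKM in GV oocytes and at 5.845, 3.11, 9.06 and 5.73 FPKM in eggs. All eggs were far below the GV oocytes, among which the WT libraries spread more widely than the Psma7 cKO libraries. The log2 fold change of Eif4h was -5.06 in WT and -3.88 in Psma7 cKO (adjusted p = 8.7e-09 and 3.2e-06). Eif4b fell by less, with log2 fold changes of -1.70 and -1.91, and so did Eif4a3, a helicase of the exon junction complex, with -1.24 and -0.68.

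The cap is bound by eIF4E, which joins the scaffold eIF4G unless a 4E-BP holds it. Eif4e fell from 59.5 ± 6.58 to 34.3 ± 5.19 FPKM in WT (SD, n = 4; log2 fold change -0.80, adjusted p = 8.6e-05) and by -0.47 on the log2 scale in Psma7 cKO (adjusted p = 0.0033). Eif4e3, a divergent cap binder, was more abundant throughout and rose from 198 ± 11.9 to 241 ± 6.53 FPKM in WT (SD, n = 4; adjusted p = 0.0037). In Psma7 cKO it passed only with all 16 libraries fitted. Eif4e2, which binds the cap but does not start translation, was the lowest of these, at 4.102 FPKM in WT GV oocytes and 0.473 FPKM in WT eggs. Among the scaffolds, Eif4g3 rose in WT from 5.93 ± 0.144 to 7.65 ± 0.441 FPKM (SD, n = 4; adjusted p = 0.0059) and in Psma7 cKO by a log2 fold change of 0.35 (adjusted p = 0.02), a call that was lost without GV replicate 3. Eif4g1 had means of 10.6 and 11.5 FPKM in WT and did not pass (adjusted p = 0.33). The inhibitor genes were low. Eif4ebp1 and Eif4ebp2 had WT GV means of 4.04 and 1.73 FPKM. With every library fitted, Eif4ebp2 did not pass in Psma7 cKO maturation (log2 fold change -0.33, adjusted p = 0.054). It passed as lower there with no filter, without GV replicate 3, without egg replicate 4, and without egg replicates 3 and 4 together, a choice made after the values had been seen. Eif4ebp3 was below 1 FPKM in every library.

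The last steps before elongation are served by eIF5, which triggers GTP hydrolysis on eIF2, and eIF5B, which joins the subunits, while eIF6 keeps free large subunits apart. Eif5b rose from 25.3 ± 3.585 to 41.2 ± 2.47 FPKM in WT (SD, n = 4; log2 fold change 0.71 ± 0.11 (SE), adjusted p = 9.7e-05) and by a log2 fold change of 0.60 in Psma7 cKO (adjusted p = 0.0022). The rise of Eif5 in WT, from 124.5 to 144.5 FPKM, was small (log2 fold change 0.21, adjusted p = 0.02) and was lost without egg replicate 3 or 4, with no trend and with the replicate block. Eif6 stood at 112, 111, 111 and 132 FPKM in WT GV oocytes and at 13.1, 14, 15.3 and 12.7 FPKM in WT eggs. In Psma7 cKO, Eif6 stood at 103, 129, 135 and 106 FPKM in GV oocytes and at 20.8, 17.45, 43.25 and 22.5 FPKM in eggs. The Psma7 cKO eggs lay above all WT eggs, with replicate 3 the highest, and below all GV oocytes. The log2 fold change of Eif6 from GV to MII was -3.08 in WT and -2.27 in Psma7 cKO (adjusted p = 8.4e-10 and 4.2e-05). Eif5a, better known for its part in elongation, had 2 entries, of which the abundant one had WT means of 64.6 and 86.2 FPKM and did not pass. It passed as higher in WT with median-ratio rescaling, with the replicate block and without egg replicate 1, and in Psma7 cKO without egg replicate 2. Its paralog Eif5a2 was below 1 FPKM in every library.

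Between genotypes in GV oocytes, 0 of 45 members were higher and 0 lower in Psma7 cKO by limma, where 0.0994% and 0.0181% of 11062 entries were. At an unadjusted p under 0.05, 1 member was higher and 1 lower, as were 7.62% and 3.065% of all entries. The first was Eif4b, at 30.95, 28.5, 28 and 35.3 FPKM in WT and 28.9, 44.99, 39.9 and 40.01 FPKM in Psma7 cKO, where the ranges overlapped (adjusted p = 0.46). The second was Eif2s2, at 174, 162.5, 175 and 159 FPKM in WT and 159, 152, 133 and 144 FPKM in Psma7 cKO, where the lowest WT library met the highest Psma7 cKO library (adjusted p = 0.45). The members' log2 differences ran from -0.24 to 0.55 with a median of -0.02, and their standard errors from 0.08 to 0.36. None was over 3-fold apart in either direction, where 0.0362% of all entries were higher and 0.0271% lower.

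In eggs, 5 of 43 members were higher and 1 lower in Psma7 cKO than in WT, where 6.53% of 9492 entries were higher and 1.49% lower. At an unadjusted p under 0.05, 12 members were higher and 8 lower, as were 20.6% and 8.80% of all entries. The median log2 difference was 0.10 over the members and 0.07 over all entries. Eif4h stood at 1.62, 2.496, 2.27 and 2.098 FPKM in WT eggs, beside 5.845, 3.11, 9.06 and 5.73 FPKM in Psma7 cKO eggs, a log2 difference of 1.40 ± 0.30 (SE, adjusted p = 0.033). Eif2d, with the values given above, differed by 0.95 ± 0.20 (SE, adjusted p = 0.033). In neither did the genotypes overlap, and egg 3 was the highest and egg 2 the lowest of the Psma7 cKO libraries in both. Eif2b2, a subunit of eIF2B, stood at 9.68, 8.78, 8.79 and 10.4 FPKM in WT eggs, beside 13.8, 14.1, 23.9 and 13.7 FPKM in Psma7 cKO eggs (log2 difference 0.76, adjusted p = 0.04). Eif4a3 stood at 60.7, 65.1, 57.3 and 58.8 FPKM in WT eggs, beside 84.6, 79.2, 102 and 92.6 FPKM in Psma7 cKO eggs (log2 difference 0.56, adjusted p = 0.019). All Psma7 cKO eggs were above all WT eggs for these genes, with egg 3 the highest. Eif1b stood at 220.3, 209, 204 and 169.9 FPKM in WT eggs, beside 382, 319.9, 299 and 233 FPKM in Psma7 cKO eggs (log2 difference 0.60, adjusted p = 0.041). Here egg 1 was the highest and egg 4 the lowest of the Psma7 cKO eggs. Eif4g2, which encodes a scaffold that lacks the eIF4E binding site, was the member that was lower. It stood at 77.5, 69.9, 70.6 and 68.7 FPKM in WT eggs, beside 51.8, 60.25, 53.5 and 53.55 FPKM in Psma7 cKO eggs, without overlap (log2 difference -0.39, adjusted p = 0.026).

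The calls in eggs changed whichever library was left out, so their loss was not tied to a particular library. With every library fitted, their adjusted p ran from 0.019 for Eif4a3 to 0.041 for Eif1b, not far under the threshold. Without WT egg replicate 1, 3 or 4, limma gave 0 members higher and 0 lower, with 11 members higher at an unadjusted p under 0.05 in each case and 6, 4 and 6 lower, beside 16.3%, 17.6% and 18.25% of all entries as higher and 5.92%, 7.73% and 7.93% as lower. Over the whole table, the entries that were higher by adjusted p then numbered 12, 3 and 31 in place of 620. Eif4a3 alone was higher without WT replicate 2, as it was without Psma7 cKO replicate 1, and 0 were lower, with 5 and 6 at an unadjusted p under 0.05 (6.74% and 8.02% of all entries). Of all entries, 1.15% and 1.76% were higher in these fits. Without Psma7 cKO replicate 4, Eif1b and Eif4a3 were higher, as were 3.797% of all entries. Without Psma7 cKO replicate 2 there were 9 higher: Eif2b2, Eif2d, Eif3d, Eif3g, Eif3h, Eif3m, Eif4a3, Eif4h and Eif6. In that fit 1024 of all 9516 entries (10.8%) were higher, beside 6.53% with every library. Without Psma7 cKO replicate 3, 5 were higher (Eif2b2, Eif2d, Eif4a3, Eif4h and Eif6), as were 3.065% of all entries, and Eif4g2 remained lower. With Psma7 cKO replicates 3 and 4 both left out, a choice made after their values had been seen, Eif1b, Eif2b2 and Eif4a3 were higher and 0 lower, with 3 lower at an unadjusted p under 0.05 (6.49% of all entries), and 2.35% of all entries were higher and 0.343% lower. Eif1b and Eif2b2 were also lost with no filter (adjusted p = 0.058 for both) and with no trend (0.058 and 0.052). Eif2d and Eif4h were too low to be tested with a mean of at least 5 FPKM. With the replicate block Eif1b passed (adjusted p = 0.036), and Eif2b2 (0.077), Eif2d (0.066), Eif4a3 (0.054), Eif4h (0.064) and Eif4g2 (0.064) were lost. The log2 differences kept their signs in all these fits, and with a WT egg left out those of Eif4h were 1.28 to 1.49 and those of Eif2d 0.93 to 0.96. By size alone, 1 member, Eif3g, was more than 3-fold higher and 0 were more than 3-fold lower, where 1.76% and 0.0211% of all entries were, but Eif3g did not pass the test (adjusted p = 0.065).

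**Figure D3:**
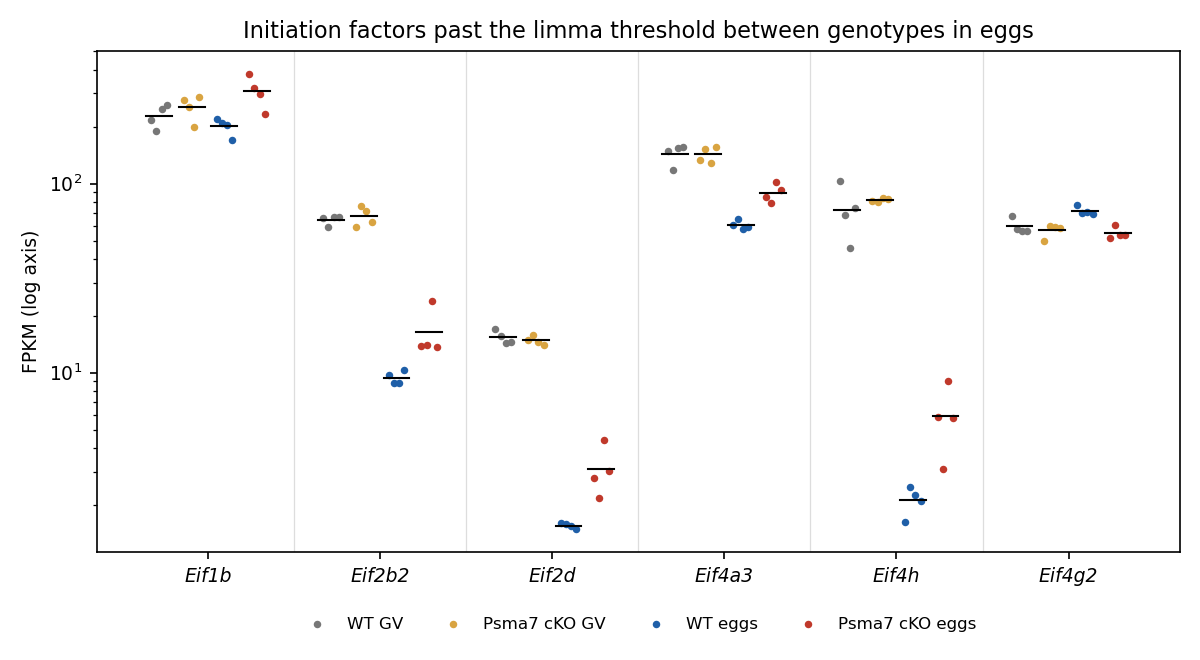
FPKM on a log axis of the 6 members that passed the threshold between genotypes in eggs, with each library as a point and each group mean as a line. Eif1b, Eif2b2, Eif2d, Eif4a3 and Eif4h lie higher and Eif4g2 lower in Psma7 cKO eggs than in WT eggs, while the GV oocytes of both genotypes overlap for each.

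Whether the genotype difference itself changed between the stages was tested as an interaction over all 16 libraries. Of 45 members, 1 passed as higher and 0 as lower by limma, where 1.07% and 0.188% of 10615 entries did. Without adjustment, p was under 0.05 for 11 members as higher and 1 as lower, and for 12.7% and 5.03% of all entries. The member was Eif2d, with a genotype difference that was larger in eggs by a log2 value of 1.00 ± 0.22 (SE, adjusted p = 0.04). It passed when Psma7 cKO egg replicate 1, 2 or 3 was left out and was lost in the other 13 of 16 such fits. Without Psma7 cKO egg replicate 2, 7 members passed, and these were Eif1ax, Eif2d, Eif3g, Eif3m, Eif4a3, Eif4h and Eif6, while 605 of all 10678 entries (5.67%) passed as higher in that fit, in place of 114. Without WT GV replicate 2, Eif4a3 passed in place of Eif2d. With Psma7 cKO egg replicates 3 and 4 both left out, 0 passed in either direction, with 10 higher and 0 lower at an unadjusted p under 0.05, beside 9.57% and 4.12% of all entries. For Eif4h, Eif2b2, Eif1b, Eif4a3 and Eif4g2, which passed in eggs and not in GV oocytes, the interaction did not pass (adjusted p = 0.12, 0.1, 0.28, 0.061 and 0.17).

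Genes around the initiation factors were read from lists, whose counts stand beside 26.1% of all entries that rose and 52.4% that fell in WT, and 23.0% and 51.0% in Psma7 cKO. Of the eIF2 kinases and phosphatase subunits, 5 of 6 were tested in each comparison: 2 rose and 2 fell in WT maturation, 0 rose and 2 fell in Psma7 cKO maturation. The initiation partners, among them poly(A) binding proteins and their regulators, gave 2 rises and 8 falls of 12 tested in WT and 2 and 9 in Psma7 cKO, led by Paip1 (log2 fold change 1.63 in WT) and Pabpc1l (-3.50). Of 11 tested entries of the mTOR and MNK list, 2 rose and 5 fell in WT and 1 rose and 4 fell in Psma7 cKO, with Rheb at 1.45 and Rps6 at -3.33 in WT. Of 7 tested genes of the elongation list, all with names in Eef and not all elongation factors, 0 rose and 5 fell in WT. In Psma7 cKO 2 of them rose and 5 fell, and of 3 termination factors 2 fell in each genotype. Among these, Eef1g and Rps6kb2 were below 1 FPKM in every egg library and Pabpc1 in every Psma7 cKO egg library, so their calls as lower there are set in part by the filter and the floor. Eif4e1b and Eif4enif1, which the rule left out, moved apart, with log2 fold changes of 0.44 and -0.80 in WT. In eggs, the listed genes other than members that differed between genotypes were Eef1b2 (0.53) and Eef1e1 (0.69) of the elongation list, Mtor (-0.46) and the oocyte marker Zp3 (1.20), all as log2 differences. These calls too were lost with a library left out: without each of the 4 WT replicates for Eef1b2, Eef1e1 and Mtor, without WT replicate 1, 3 or 4 for Zp3, and without Psma7 cKO replicate 1 or 3 for Eef1b2 and 1, 3 or 4 for Eef1e1 and Mtor. Mtor was also lost with its entries summed by gene name (adjusted p = 0.11), with all 16 libraries fitted (0.058), with no filter (0.051), with log2(FPKM + 1) (0.05) and with the replicate block (0.1). Eef1e1 was lost with no filter, with no trend and with the replicate block, Eef1b2 with no trend, and Zp3 with the replicate block. Without Psma7 cKO replicates 3 and 4 together, Eef1e1 and Mtor were lost. Of the markers, 3 oocyte genes rose and 6 fell in each genotype from GV to MII, and of the 3 cumulus and granulosa genes tested, 2 rose and 1 fell in WT and 1 rose in Psma7 cKO. In GV oocytes none of these lists had a gene past the threshold, and in the interaction only Zp3 passed (1.14), a call that was lost without Psma7 cKO GV replicate 3 (adjusted p = 0.051).

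The 3′ ends of the members were read for sequence features, since the length of the poly(A) tail bears on what oligo-dT primes. The last 100 bases of 1 annotated 3′ UTR per gene could be taken for 43 members and for 19252 genes in all, from GENCODE M21 on mm10. The poly(A) signal AATAAA or ATTAAA was present in 34 of the 43 members (79.1%) and in 78.5% of all genes. The cytoplasmic polyadenylation element, searched as TTTTAT or TTTTAAT on the transcript strand, was present in 4 members (9.30%) and in 17.8% of all genes. Among members that rose in WT it was in 1 of 10, beside 30.7% of all genes that rose, and among members that fell in 2 of 20, beside 14.3% of all genes that fell. The sites below show these letters in capitals for 2 members that rose and 2 that fell, and for Eif1ax, which held an element but no signal and fell. The letters of the 2 motifs may overlap. A match is a description of the annotated end, which may not be the end used in oocytes. The sites are at chr5:124570213-124570242, minus strand (Eif2b1), chr16:23113918-23113947, plus strand (Eif4a2), chr5:134619877-134619906, minus strand (Eif4h), chr2:155819832-155819861, minus strand (Eif6) and chrX:159389896-159389925, plus strand (Eif1ax) in mm10, each in the 3′ UTR.
Eif2b1: gagtgctgggATTAAAgatgtgtaccatga
Eif4a2: aatgttaAATAAAattgtatattcacttta
Eif4h: tcttttaAATAAAagagaaccttacataac
Eif6: cccATTAAAggactgcctcccaccatcctc
Eif1ax: atgTTTTATgctgcacaaatatatgtataa

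Among the 7 pseudogene entries only Eif4a-ps4 had a mean above 1 FPKM, at 25.97 ± 5.53 FPKM in WT GV oocytes (SD, n = 4). In WT GV oocytes both it and Eif4a1 were highest in replicate 2 and lowest in replicate 3. Whether its reads came from Eif4a1 was not tested. The second Eif3i entry, at 1.21 FPKM in WT eggs, and the lower Eif5a entry share their gene name with another entry, and how reads were divided between them is not given in the sources used here. Eif3j2, like Eif3k, Eif4ebp3 and Eif5a2, was below 1 FPKM in every library.

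These results describe levels of poly(A) RNA as shares of a library, and protein levels and translation were not analysed here. With 4 pools a group, a small difference can be missed, and the calls between genotypes in eggs were lost in many fits with a library left out. GV oocytes and eggs came from separate collections with different hormone treatment, so stage and collection cannot be told apart. The comparisons share groups, so their counts are not independent. Among the Psma7 cKO eggs, replicate 3 had the highest median level of the 584 entries that fell more than 8-fold in WT from a GV mean of at least 8 FPKM, and its part in the differences was not tested beyond leaving it out.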

How the data were processed

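Oocyte and egg pools were lysed with ERCC spike-in RNA and made into cDNA by Smart-seq2. FPKM values were made by the authors with Cufflinks 2.2.1 and deposited, with no ERCC entry among them; the submitters' processing notes also name TopHat2 2.1.1 and mm10. The gene annotation is not given in the sources used here. Groups came from the sample labels.

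The values were analysed as log2 FPKM, with values below 1 set to 1, in limma 3.58.1 (R 4.3.3) with an intensity trend. A test was made where the mean over the compared libraries reached 1 FPKM, with p-values adjusted (Benjamini-Hochberg, threshold 0.05) over all entries. Fold changes of low genes are understated on this scale. Each within-stage or within-genotype comparison used 8 libraries and the interaction used 16. The fit was tested on simulated data. Depth was estimated from the smallest FPKM steps over 4465 transcripts, and values well below 1 FPKM rest on few fragments. Entries that share a name were kept apart. Python 3.11.15 with numpy 2.4.6, pandas 2.3.3 and matplotlib 3.10.9 was used for the rest, and GENCODE M21 for positions.

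Named members were those past the threshold (with over 20, the 10 highest and 10 lowest), the 5 most abundant in WT GV oocytes and in WT eggs, and the lowest paralog of each family. Other members named for contrast were chosen after their values were seen. Members and lists were chosen with earlier results of these data known. Alternatives covered the floor, pseudocount, filter, scaling, trend, replicate number, libraries fitted, entries per gene and each library left out.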

Additional observations from a re-analysis of the deposited data

Results flagged for a closer look

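In 11 of 110 groups of 4 libraries, 1 library stood apart from the other 3, where chance alone would mark about 1 in 20. In Psma7 cKO eggs the values that stood apart were Eif2b1 at 306 FPKM, Eif2b2 at 23.9 FPKM and Eif3l at 11.5 FPKM, all of them replicate 3. In WT GV oocytes they were Eif2b2 at 58.7 FPKM (replicate 2), Eif3b at 19.2 FPKM (replicate 4), Eif3e at 164.9 FPKM (replicate 3), Eif4g2 at 67.7 FPKM (replicate 1) and Eif6 at 132 FPKM (replicate 4). In WT eggs it was Eif3e at 198 FPKM (replicate 4). In Psma7 cKO GV oocytes they were Eif3m at 169.5 FPKM (replicate 3) and Eif4g2 at 49.7 FPKM (replicate 1).

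The genotype effects at MII and GV differed in the interaction test for Eif2d, by 1.00 on the log2 scale, and for the oocyte marker Zp3, by 1.14. The call of Eif2d was lost in 13 of 16 fits with a library left out, and that of Zp3 without Psma7 cKO GV replicate 3.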

How the results depend on the processing

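In GV oocytes 0 members passed in any fit. Of the 20 named members of WT maturation, all kept their call in every alternative fit, and 346 of 360 fits of the named members of Psma7 cKO maturation did. No named member turned its direction in any fit. With a library left out, WT maturation gave 10 to 13 members higher and 23 to 24 lower, and Psma7 cKO maturation 5 to 9 higher and 22 to 23 lower, with 5 without Psma7 cKO GV replicate 3 (21.8% of all entries). Eif1a was lost as lower in 6 of these 8 fits, and Eif4ebp2 was gained in 2. A mean of at least 5 FPKM gave 19 lower in each genotype (50.04% of all entries in WT and 48.9% in Psma7 cKO), and all 16 libraries gave 10 higher in Psma7 cKO (23.98% of all entries). The rule of 3-fold between means, with no test, gave 0 higher in both and 15 lower in Psma7 cKO.

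Between genotypes in eggs the 5 higher and 1 lower members became 3 higher with no filter (entries at the floor in every library still dropped; 3.25% of all entries), 3 higher and 2 lower with a mean of at least 5 FPKM (10.5% and 3.15% of all entries), 3 higher without the trend (4.37% of all entries), 12 higher when all 16 libraries were fitted (13.99% of all entries, beside 6.53%), and 1 higher and 0 lower by the 3-fold rule. Leaving out each library gave 0 to 9 higher and 0 to 1 lower. Leaving out Psma7 cKO egg replicates 3 and 4 together gave 3 higher and 0 lower (2.35% and 0.343% of all entries). In Psma7 cKO maturation that setting gave 7 higher and 23 lower (21.01% and 47.6% of all entries). There Eif2a and Eif3e were lost as higher and Eif1b gained, while Eif2s3x was lost as lower and Eif4ebp2 gained. Both that setting and summing entries by gene name were chosen after seeing the data, and the summing changed no count by more than 1.5 times. Of 106 fits of the 6 named members, 61 kept the call.

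In the interaction, the 1 member became 0 with log2(FPKM + 1) (0.7065% of all entries), 0 with no filter (0.712%), 2 with a mean of at least 5 FPKM (3.03% of all entries, beside 1.07%) and 0 without Psma7 cKO egg replicates 3 and 4 (0.598%), and 0 to 7 with a library left out.

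With the replicate number as a replicate block, eggs gave 1 member higher and 0 lower (1.06% and 0.07375% of all entries) and the interaction 0 (0.499% as higher), Psma7 cKO maturation lost Eif2a and Eif3e (6 higher; 21.0% of all entries), and WT maturation lost Eif5 and gained Eif5a. Whether samples of the same number belong together is not given in the labels. Over 24 same-numbered pairs the correlation of deviations from the group means ran from -0.50 to 0.29. Of these, 6 were over 0.1, and in 5 a library correlated best with its own number. With 4 libraries a group, this check cannot settle whether the numbers pair the samples.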
